A study of Mus musculus with 6 samples.

Results

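Endosomal sorting genes were followed in primary mouse keratinocytes that carried an active form of the transcription factor NFATc1. The members were chosen by gene name alone, as every gene whose symbol begins with Vps, Snx or Chmp and a number, together with Hgs, Stam, Stam2, Tsg101 and Pdcd6ip. They came to 80 of the 19935 genes measured, on 84 array rows, and every member was tested because no filter on dim rows was applied. The family itself was selected with the caNFATc1 minus control differences of these arrays already known. All differences, calls and p-values of members below are therefore descriptions, and none is independent evidence.

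The caNFATc1 group held 3 cultures of keratinocytes from wild-type CD1 mice, infected with a retrovirus for caNFATc1, a recombinant human NFATc1 whose autoinhibitory domain is mutated. The vector control group held 3 cultures infected with a retrovirus made from the empty MSCV vector. All 6 cultures were kept in low-calcium medium, so all are cells grown in a dish under conditions that hold back differentiation, and all still carry their own mouse Nfatc1. Neither the ages of the mice nor whether cells of several animals were pooled is given in the sources used here.

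Receptors taken in from the cell surface reach the early endosome, where they are either kept for return or passed on for breakdown. The ESCRT complexes act in order on ubiquitin-tagged cargo: ESCRT-0, I and II hold the cargo and ESCRT-III filaments pinch it into vesicles inside the endosome. The retromer and many sorting nexins, which bind membrane lipids through a PX domain, send cargo back to the surface or to the Golgi. HOPS, CORVET and GARP are tethers that bring membranes together before they fuse. In keratinocytes such traffic governs growth factor receptors and integrins.

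Each value is a log2 signal relative to the median of its row over the 6 arrays, so a level cannot be read and a marker's absence cannot be seen. The number of arrays limits the precision. Same-numbered arrays deviated together from their group means, with correlations across all genes between 0.57 and 0.71, against -0.60 to 0.18 for arrays of unlike number. Deviations from a group mean sum to 0 for each gene, so the values for unlike numbers are low partly by construction. The sample titles number the cultures and do not say that those of the same number were matched. Over the 80 members alone the same-numbered correlations were 0.51 to 0.71. Replicate 1 stood apart in both groups in the sex-linked genes Xist and Eif2s3y. Xist read -6.05 and -6.00 there and between -0.04 and 0.18 in replicates 2 and 3. Eif2s3y read 3.00 and 3.77 there and between -0.08 and 0.01 in replicates 2 and 3. The part that this plays in the differences of replicate 1 was not tested. Limma was fitted over all genes, once with the group alone and once with the replicate number as a block, and a gene is called where its p, adjusted by Benjamini and Hochberg's method across the 19935 genes, is under 0.05. Mouse Nfatc1 itself differed by 0.04 ± 0.09 (SE, limma adjusted p = 0.917), which does not measure the human transgene. Among 6 keratinocyte markers, 3 were positive and 3 negative, and 1 was called with the block, Trp63 (log2 difference 0.42, limma adjusted p = 0.0444). Epcam went the other way, by -0.26, without a call in either fit. It was lower in all 3 pairs and its groups did not overlap. Among 7 fibroblast markers, 5 were positive and 1 was called with the block, Col3a1 (1.20, limma adjusted p = 0.0296), while Pdgfra differed by 0.83 without a call. Col3a1 and Pdgfra were higher in all 3 pairs and their groups did not overlap. The 2 negative markers, Lum and Thy1, differed by -0.01 and -0.14 with overlapping groups. Of the 16 melanocyte, immune and endothelial markers neither fit called any, 0 had an unadjusted p under 0.05 in either fit, and 2 were positive. The part that other cell types play in the results below was not tested, and in RNA from whole cultures fewer cells of a type and less RNA per cell cannot be told apart.

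Most endosomal sorting genes had small differences between the groups, and more were positive than negative. The log2 difference, caNFATc1 minus vector control, was positive for 56 members (70%) and negative for 24, with a median of 0.08 and a range of -0.32 to 0.79. Its median size regardless of sign was 0.11, beside 0.09 over all genes. Over all genes the median was -0.01 and 47.4% were positive. The members' median was 0.08, 0.11 and 0.06 in pairs 1, 2 and 3, against -0.06, 0.02 and 0.01 for all genes. Within 0.2 of 0 lay 65 members, and 3 members (Vps36, Snx7 and Chmp1b) differed at least 1.5-fold. That is 3.75% of members, beside 4.25% of all genes.

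Without the block limma called 0 members in either direction, with 11 of 80 at an unadjusted p under 0.05 beside 2534 of all 19935 genes, where it called 0.206% of all genes higher and 0.0100% lower. With the replicate block it called 4 members higher (Vps36, Snx32, Snx7 and Snx33) and 0 lower, with 19 of 80 at an unadjusted p under 0.05 beside 4287 of all 19935 genes, where 3.73% of all genes were called higher and 2.38% lower. The arrays of the groups did not overlap for 14 of the 80 members that were higher and 2 that were lower. Over all genes the shares were 9.64% and 9.09%. All 3 pairs were higher for 36 of the 80 members and lower for 10, beside 21.6% and 21.4% of all genes. In both counts the members' share was above that of all genes for higher and below it for lower. Nothing is read from these counts, because the family was selected from the same contrast.

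**Figure D1:**
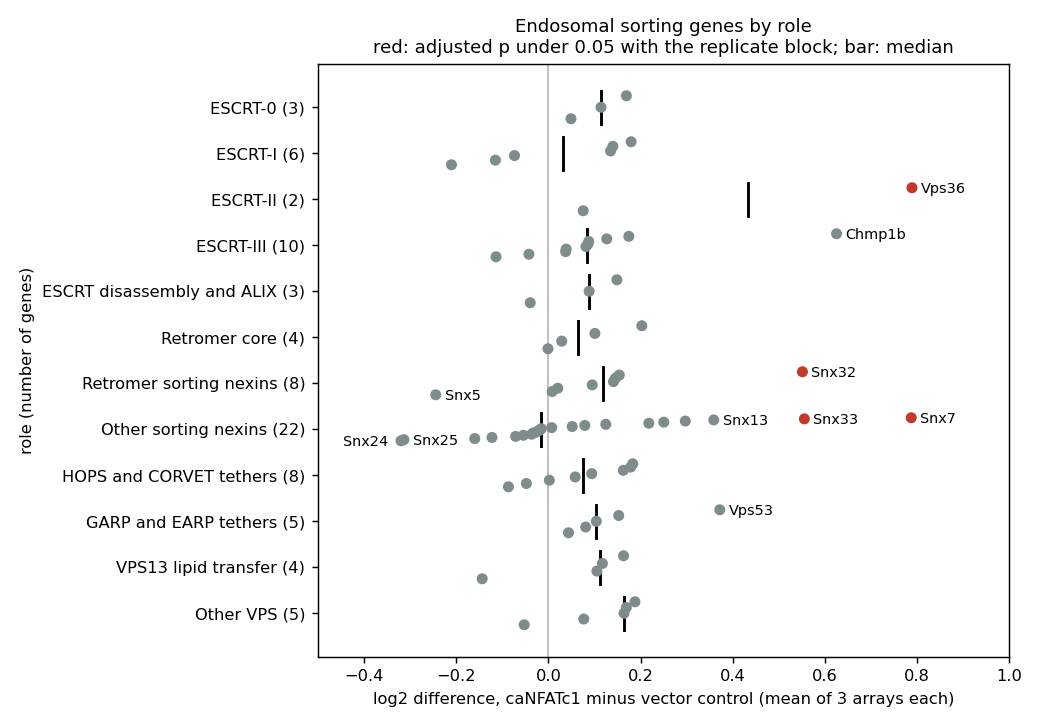
The log2 difference of each of the 80 members is plotted on the horizontal axis, caNFATc1 minus vector control, with a row for each role and a black bar at its median. Red points are the 4 members called with the replicate block, of which Vps36 and Snx7 lie at 0.79, and most other points lie within 0.2 of 0.

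ESCRT-II held the member with the largest difference. Vps36, the ESCRT-II subunit that binds ubiquitin and membrane lipid, read 0.60, 0.31 and 0.31 on caNFATc1 arrays 1, 2 and 3, against -0.31, -0.36 and -0.47 on the vector control arrays. Every caNFATc1 array lay above every control array. Vps36 averaged 0.41 ± 0.17 in caNFATc1 cells and -0.38 ± 0.08 in control cells (SD, n = 3 each), a difference of 0.79 or 1.73-fold. It rose with the replicate block (SE 0.07, limma adjusted p = 0.00904) and was not called without it (SE 0.10, limma adjusted p = 0.0548). Vps25, the other ESCRT-II subunit of the family, differed by 0.08 and its groups overlapped. Snf8, the remaining subunit of that complex and no member by name, differed by -0.03 ± 0.09 (SE).

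Snx7, a sorting nexin with a membrane-bending BAR domain, read 0.64, 0.22 and 0.57 on caNFATc1 arrays, against -0.42, -0.22 and -0.30 on control arrays. Its groups did not overlap, and caNFATc1 array 2 was the lowest of its group. The pairs differed by 1.06, 0.43 and 0.86, with a mean of 0.79 or 1.73-fold. It rose with the replicate block (SE 0.13, limma adjusted p = 0.0296, and 0.0813 without the block). Without replicate 1 of both groups the block fit no longer called it.

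Snx33, a relative of Snx9 with an SH3 and a BAR domain that takes part in endocytosis, read 0.32, 0.01 and 0.05 on caNFATc1 arrays, against -0.01, -0.69 and -0.59 on control arrays. Control array 1 lay close to the lowest caNFATc1 array, and the gap between the groups was narrow. The pairs differed by 0.33, 0.70 and 0.64 (mean 0.56, 1.47-fold). It rose with the replicate block (SE 0.09, limma adjusted p = 0.0319, and 0.321 without it), and the call was absent from the block fit without replicate 2 or without replicate 3 of both groups.

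Snx32, a close relative of the retromer-linked nexins Snx5 and Snx6, read -0.05, 0.25 and 0.68 on caNFATc1 arrays, against -0.53, -0.30 and 0.05 on control arrays. The groups overlapped, since control array 3 lay above caNFATc1 array 1. The pairs nevertheless differed by similar amounts, 0.48, 0.54 and 0.63, with a mean of 0.55 (1.47-fold). It rose with the block (SE 0.07, limma adjusted p = 0.0158, and 0.395 without it), so its call rests on the pairing of the arrays.

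**Figure D2:**
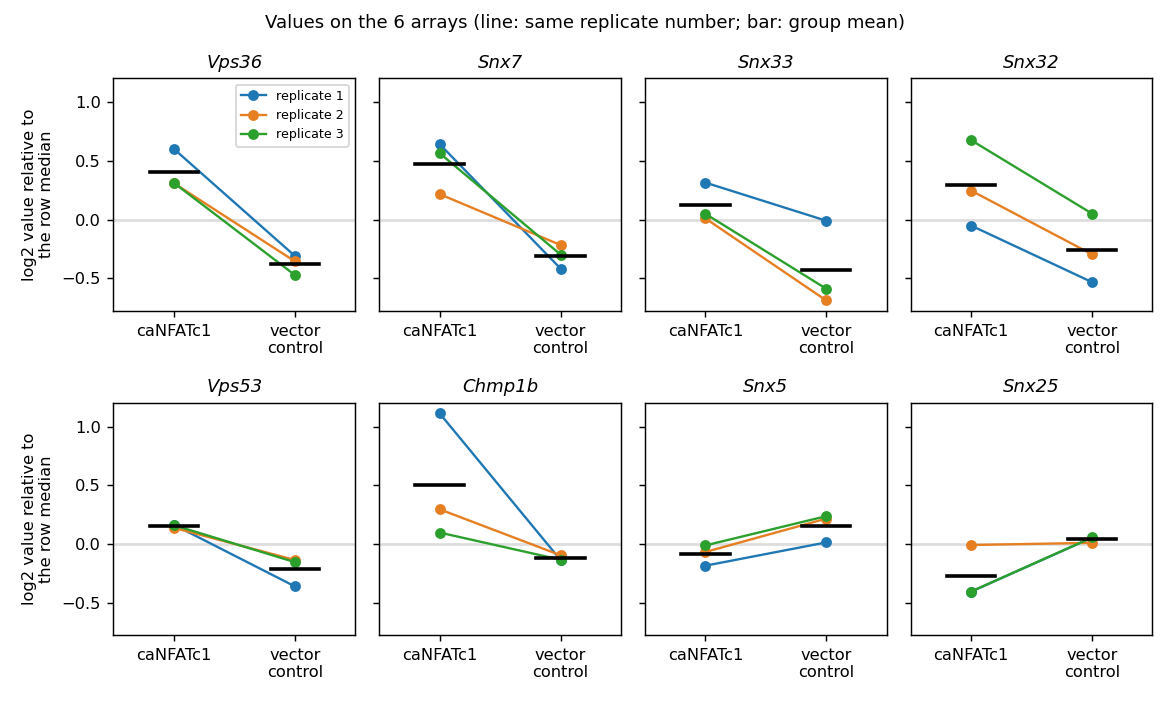
Values on the 6 arrays, as log2 relative to the row median, are shown for 8 members with caNFATc1 left of vector control, lines joining arrays of the same replicate number and black bars at group means. Vps36 and Snx7 separate the groups, Snx32 overlaps although its 3 lines run parallel, and caNFATc1 array 1 of Chmp1b stands at 1.11.

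The starts of 3 of the 4 called members are printed because they are the members that moved, and because NFAT proteins are known to bind a GGAAA core. Each window runs from 250 bases before to 50 after the gene's start, from RefSeq on build GRCm38.p6, written 5′ to 3′ along the gene. Capitals mark GGAAA or its reverse complement TTTCC, so a window without a match has none. Vps36 lies on the plus strand at chr8:22192583-22192882, Snx7 on the minus strand at chr3:117868887-117869186 and Snx33 on the minus strand at chr9:56928322-56928621. Snx32 had no entry in the table used, and Snx33 was added after its values were seen.
Vps36: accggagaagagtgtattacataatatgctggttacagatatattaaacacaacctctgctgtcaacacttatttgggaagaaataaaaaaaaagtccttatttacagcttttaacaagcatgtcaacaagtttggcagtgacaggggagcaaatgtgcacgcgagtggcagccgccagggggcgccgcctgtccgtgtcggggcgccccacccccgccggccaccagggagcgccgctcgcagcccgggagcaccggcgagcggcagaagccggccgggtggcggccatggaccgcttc
Snx7: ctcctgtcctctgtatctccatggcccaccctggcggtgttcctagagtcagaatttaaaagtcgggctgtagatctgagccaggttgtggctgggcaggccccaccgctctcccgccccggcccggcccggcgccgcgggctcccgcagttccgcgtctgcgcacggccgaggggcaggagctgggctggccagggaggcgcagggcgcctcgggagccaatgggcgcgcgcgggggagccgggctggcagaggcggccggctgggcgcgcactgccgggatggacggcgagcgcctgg
Snx33: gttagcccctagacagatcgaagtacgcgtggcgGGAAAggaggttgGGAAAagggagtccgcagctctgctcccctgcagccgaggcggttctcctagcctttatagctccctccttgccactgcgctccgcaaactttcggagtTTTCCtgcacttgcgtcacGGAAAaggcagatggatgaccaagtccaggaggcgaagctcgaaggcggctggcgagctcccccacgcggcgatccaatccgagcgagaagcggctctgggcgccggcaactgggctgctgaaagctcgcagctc

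Snx33 held 4 matches to the GGAAA core, at positions -216, -203, -104 and -85 from the start, counted at the first base of each match. Vps36 and Snx7 held 0 in these windows, and none of the 3 held CACGTG (the E-box core) or the AP-1 sites TGACTCA and TGAGTCA. Of the 80 members, 54 had an entry, with 65 windows in all. Searched on both strands, GGAAA was present in 58.5% of member windows, against 59.8% of 18421 windows of the other measured protein-coding genes and 61.3% of all 32851 windows. CACGTG was present in 9 member windows of 8 genes (13.8%), against 8.28% and 7.15%. The AP-1 sites were present in 4.62%, against 4.60% and 5.20%. Motifs of different kinds can overlap only at their ends. Member windows had a median of 24 CG dinucleotides and 63.0% G and C bases, against 15 and 57.7% in windows of the other measured protein-coding genes. The median GGAAA count was 1 in member windows and in windows of the other measured protein-coding genes. Vps29 and Chmp5 held 5 matches, at differences of -0.0009 and 0.17. Snx14, Vps26a and Vps50 each had a window with 4, as Snx33 did, at differences of 0.08, 0.20 and 0.04. A match here is a run of letters and no evidence of binding. The 8 genes with CACGTG were Pdcd6ip, Snx5, Snx8, Snx18, Vps16, Vps26a, Vps33a and Vps50. They included Snx5, whose difference was -0.24, and Vps26a, whose difference was 0.20. The others lay between -0.05 and 0.04.

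The ESCRT genes other than Vps36 and Chmp1b lay between -0.21 and 0.18. Over all 24 ESCRT genes, Vps36 included, 18 were positive and 6 negative, and the median was 0.09. In ESCRT-0, which gathers ubiquitin-tagged receptors on the endosome, all 3 genes were positive and 0 were called. Stam2, a partner of Hgs, read 0.08, 0.20 and 0.01 on caNFATc1 arrays, against -0.12, -0.01 and -0.10 on control arrays. The groups of Stam2 did not overlap, and the difference of 0.17 had a limma adjusted p of 0.207 with the block. Hgs, the scaffold of ESCRT-0, read 0.01, 0.39 and -0.03 on caNFATc1 arrays, against -0.01, 0.13 and -0.09 on control arrays. Pair 2 of Hgs differed by 0.26 and pairs 1 and 3 by 0.02 and 0.06.

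ESCRT-I, which bridges ESCRT-0 to the later complexes, was divided, with 3 genes positive, 3 negative and 0 called. Tsg101, its ubiquitin-binding subunit, read 0.249, -0.004 and -0.005 on caNFATc1 arrays, against -0.132, 0.019 and -0.067 on control arrays. Pair 1 of Tsg101 differed by 0.38, and pairs 2 and 3 by -0.02 and 0.06, so the mean of 0.14 came mostly from replicate 1. Its 2 rows differed by 0.16 and 0.11. The 4 Vps37 subunits, which occupy the same place in the complex, pointed both ways. Vps37c differed by 0.18 with no overlap between groups, while Vps37a, Vps37d and Vps37b differed by -0.07, -0.11 and -0.21. Vps37b read -0.14, 0.16 and -0.35 on caNFATc1 arrays, against 0.30, 0.14 and -0.14 on control arrays, so its second pair did not share the direction of the others.

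In ESCRT-III, whose CHMP proteins polymerise on the neck of the budding vesicle, 8 of 10 genes were positive and 0 were called. Chmp1b, which also recruits enzymes that cut microtubules, read 1.11, 0.30 and 0.10 on caNFATc1 arrays, against -0.14, -0.10 and -0.13 on control arrays. The groups did not overlap, and caNFATc1 array 1 stood far above the other arrays. Its pairs differed by 1.25, 0.39 and 0.23 (mean 0.63, SE 0.20 with the block, limma adjusted p = 0.138). Without caNFATc1 replicate 1 the difference was 0.32, and without replicate 3 of both groups the block fit called it. Chmp4b, the main filament subunit, read -0.310, 0.003 and 0.258 on caNFATc1 arrays, against -0.216, 0.054 and -0.003 on control arrays, a mean difference of 0.04 whose sign turned without caNFATc1 replicate 3 and without control replicate 1. Chmp6 and Chmp4c differed by -0.11 and -0.04, and the others lay between 0.04 and 0.17.

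The AAA ATPases Vps4a and Vps4b, which pull ESCRT-III filaments apart, were higher in all 3 pairs without being called. Vps4a read 0.10, 0.04 and -0.11 on caNFATc1 arrays, against 0.03, -0.03 and -0.24 on control arrays, a difference of 0.09 ± 0.06 (SE with the block, n = 3 pairs) that was 0.0089 when vector control replicate 3 was dropped and 0.043 when caNFATc1 replicate 1 was. Vps4b read -0.003, 0.161 and 0.073 on caNFATc1 arrays, against -0.138, -0.080 and 0.003 on control arrays. The groups of each overlapped, and the difference of Vps4b was 0.15 ± 0.07 (SE with the block). Pdcd6ip encodes ALIX, an adaptor that links cargo to ESCRT-III. Its values were -0.15, 0.06 and 0.01 on caNFATc1 arrays, against -0.02, 0.07 and -0.01 on control arrays, a difference of -0.04 that was positive without replicate 1.

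The retromer core, a trimer that selects cargo for return, had small differences with 0 genes called. Vps35, its scaffold, read 0.11, 0.02 and -0.05 on caNFATc1 arrays, against 0.03, -0.02 and -0.02 on control arrays. The groups overlapped, and the difference of 0.03 was smaller than its SE of 0.06 with the block. Vps29 differed by -0.0009. Vps26a, the arrestin-like subunit, read -0.02, 0.13 and 0.02 on caNFATc1 arrays, against -0.28, 0.06 and -0.25 on control arrays. Its difference of 0.20 was the largest of the core (limma adjusted p = 0.185 with the block), and that of Vps26b was 0.10. The members of the related retriever complex, Vps35l and Vps26c, differed by 0.16 and 0.08.

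Sorting nexins that work with retromer were mostly positive, 7 of 8, with a median of 0.12 and Snx32 as the called gene. Snx5 was the exception and read -0.19, -0.07 and -0.01 on caNFATc1 arrays, against 0.01, 0.22 and 0.24 on control arrays. All its caNFATc1 arrays lay below all its control arrays. The difference was -0.24 ± 0.06 (SE with the block, limma adjusted p = 0.0900). Snx1 and Snx2, its partners in membrane-bending dimers, differed by 0.01 and 0.15, and its paralogue Snx6 by 0.15. Snx27, which couples retromer to receptors with a PDZ-binding tail, differed by 0.14 with no overlap, and Snx3 and Snx12 differed by 0.10 and 0.02.

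The 22 other sorting nexins were divided, with 10 positive and 12 negative and a median of -0.02. Over all 30 sorting nexins the differences had an SD of 0.25 between genes, against 0.17 over the 50 other members. Beside Snx7 and Snx33, Snx13, which carries an RGS domain, and its relative Snx19 differed by 0.36 and 0.25 with no overlap between groups. Snx25, which like Snx13 carries an RGS domain, read -0.41, -0.01 and -0.41 on caNFATc1 arrays, against 0.05, 0.01 and 0.05 on control arrays. The groups did not overlap, although pair 2 of Snx25 differed by only -0.02 and its mean of -0.31 came from pairs 1 and 3. Snx24 read 0.44, -0.14 and -0.48 on caNFATc1 arrays, against 0.78, 0.05 and -0.05 on control arrays. Its groups overlapped widely, and its pairs differed by -0.34, -0.19 and -0.43 (mean -0.32, limma adjusted p = 0.0682 with the block). Snx4, a nexin that recycles the transferrin receptor, was higher in all 3 pairs by 0.24, 0.23 and 0.43.

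Among the tethers, Vps53 of the GARP complex, which receives endosome-derived vesicles at the Golgi, had the largest difference. It read 0.16, 0.14 and 0.16 on caNFATc1 arrays, against -0.36, -0.14 and -0.16 on control arrays. The caNFATc1 arrays were nearly equal and all above the controls, and control array 1 was the lowest. The difference was 0.37 ± 0.08 (SE with the block, 1.29-fold, limma adjusted p = 0.0526), which lay just outside the threshold. The other GARP and EARP subunits, Vps50, Vps51, Vps52 and Vps54, were positive by 0.04 to 0.15. HOPS and CORVET tether late and early endosomes. Of the 8 genes grouped with them here by name, 6 were positive and 0 were called. Vps33b, at -0.09, was counted in this group, and whether it belongs to either complex was not examined. Vps39, a HOPS subunit, read 0.15, 0.11 and -0.06 on caNFATc1 arrays, against 0.06, -0.06 and -0.34 on control arrays. Its groups overlapped, and the difference was 0.18 ± 0.07 (SE with the block), or 0.071 without vector control replicate 3.

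VPS13 proteins, long bridges that carry lipid between membranes, gave differences of -0.14 to 0.16 with 0 called. Vps13d read -0.15, 0.18 and 0.12 on caNFATc1 arrays, against -0.38, -0.02 and 0.06 on control arrays. Its 2 rows disagreed in size, at 0.01 and 0.31, so its mean of 0.16 stands for neither row. The 2 rows of Snx29 differed in sign, at -0.15 and 0.11, while those of Vps4b gave 0.16 and 0.14. Of the other VPS genes, Vps45, an SM protein that binds endosomal SNAREs, read 0.12, 0.10 and 0.05 on caNFATc1 arrays, against -0.16, -0.05 and -0.08 on control arrays. Its groups did not overlap and its difference was 0.19 (limma adjusted p = 0.185 with the block). Vps9d1 differed by 0.17 with no overlap. Vps72, which despite its name is known as a histone chaperone of the chromatin remodellers SRCAP and TIP60, differed by -0.05.

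Paralogues were set side by side in 22 pairs, some of which share a gene. The 2 genes differed in opposite directions in 10 pairs. In 12 pairs the gap between them had the same sign in all 3 replicates. The widest gap was between Snx7 and Snx30, at 0.79 and 0.05, with gaps of 1.16, 0.30 and 0.74 in the 3 replicates. Snx9 and Snx33 lay at -0.16 and 0.56, and Snx13 and Snx25 at 0.36 and -0.31. Chmp1a and Chmp1b lay at 0.08 and 0.63, and Snx5 and Snx6 at -0.24 and 0.15. Vps4a and Vps4b were the closest, at 0.09 and 0.15. These gaps come from the same contrast and carry no test, and probe cross-talk between paralogues was not tested.

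**Figure D3:**
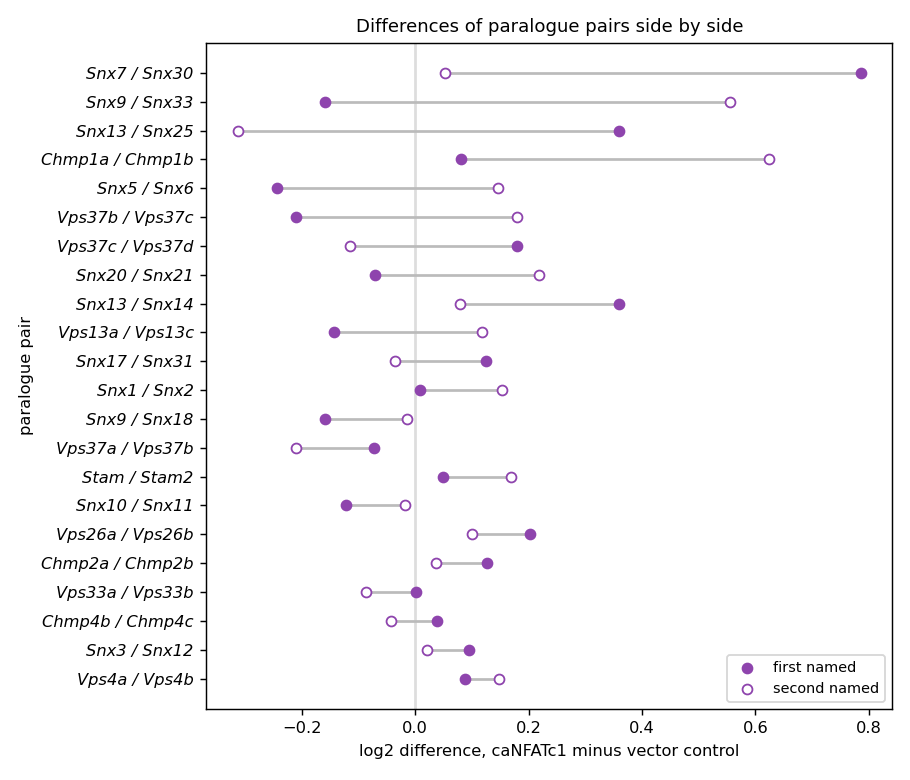
Each line joins the log2 differences of a paralogue pair, caNFATc1 minus vector control, with the first named gene filled and the second open, sorted by the size of the gap. Snx7 and Snx30 lie farthest apart, and Vps4a and Vps4b lie closest.

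Members also varied between replicate numbers. For each gene the groups were averaged at each replicate number and the range of the 3 averages taken. That range exceeded the size of the group difference for 59 of 80 members (73.8%), close to the 70.9% of all genes, and nothing particular to the members is read from it. Its median was 0.21 over members, while the median size of the group difference was 0.11. Over all genes these medians were 0.15 and 0.09. Snx24 had the widest range, 0.87, with averages of 0.61, -0.05 and -0.26 in replicates 1, 2 and 3. Vps41, a HOPS subunit, had a range of 0.64 and stood highest in replicate 1, and Chmp4c, known for its part in the abscission checkpoint of dividing cells, had 0.59 and stood lowest in replicate 3. Snx32 had a range of 0.66 in the opposite order to Snx24, at -0.29, -0.02 and 0.36. Vps36, Snx7 and Vps53 had ranges of 0.23, 0.13 and 0.10, well under their group differences.

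**Figure D4:**
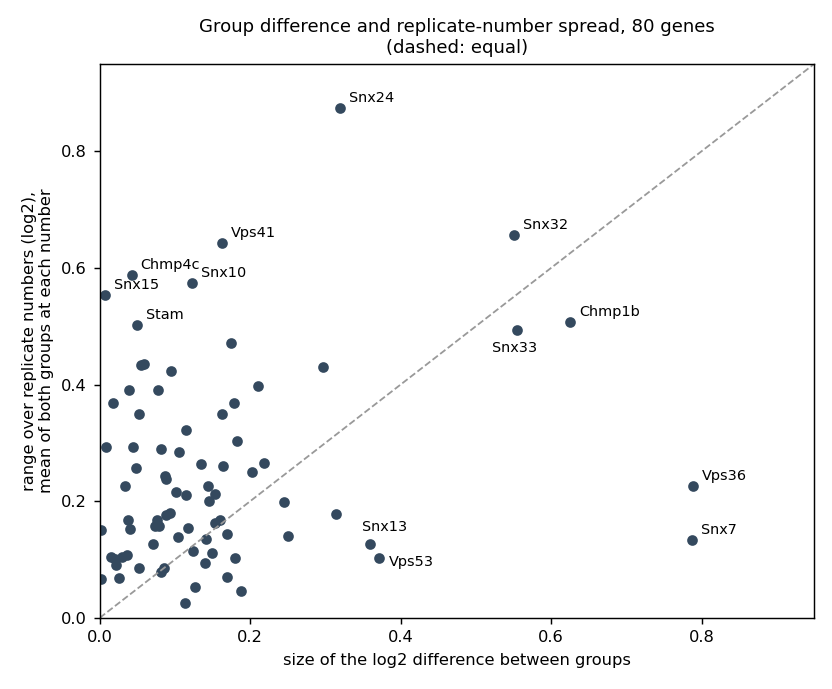
The range over replicate numbers (vertical axis, log2) is plotted against the size of the group difference (horizontal axis, log2) for the 80 members, and the dashed line marks equality. Vps36 and Snx7 lie far below the line, and Snx24 lies highest at 0.87.

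Genes of the same pathway outside the name rule were read from a list of 49, of which 46 had a row of their own. The log2 difference was positive for 35 and negative for 11, with a median of 0.07. Without the block limma called 1 gene higher, Eea1, and 0 lower, with 8 of the 46 at an unadjusted p under 0.05. Over all 19935 genes it called 0.206% higher and 0.0100% lower, with 2534 at an unadjusted p under 0.05. With the block it called Eea1 and Becn1 higher and Tfrc lower, beside 3.73% of all genes higher and 2.38% lower. Nothing particular to the list is read from these counts. Eea1, which tethers vesicles to early endosomes, read 0.36, 0.35 and 0.29 on caNFATc1 arrays, against -0.29, -0.29 and -0.42 on control arrays. Its groups were far apart and tight, and it rose by 0.66 ± 0.06 (SE, limma adjusted p = 0.0328, and 0.00904 with the block). Leaving out any 1 array ended that unblocked call, and 0 of the listed genes were then called.

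Becn1, a subunit of the lipid kinase complex that marks endosomes and autophagosomes, read 0.77, 0.09 and 0.28 on caNFATc1 arrays, against -0.09, -0.36 and -0.12 on control arrays. It rose by 0.57 ± 0.11 with the block (limma adjusted p = 0.0424), and caNFATc1 array 1 was the highest. Tfrc, the transferrin receptor and a cargo of the recycling route, read -0.42, -0.24 and -0.05 on caNFATc1 arrays, against 0.05, 0.75 and 0.47 on control arrays. It fell by 0.66 with the block (SE 0.12, limma adjusted p = 0.0373) and its groups did not overlap. Ankrd50, a partner of retromer and the WASH complex, differed by 0.65 (limma adjusted p = 0.0597 with the block). The 5 WASH genes differed by -0.01 to 0.11 and the 10 COMMD genes by -0.05 to 0.17, with 0 called in either fit.

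**Figure D5:**
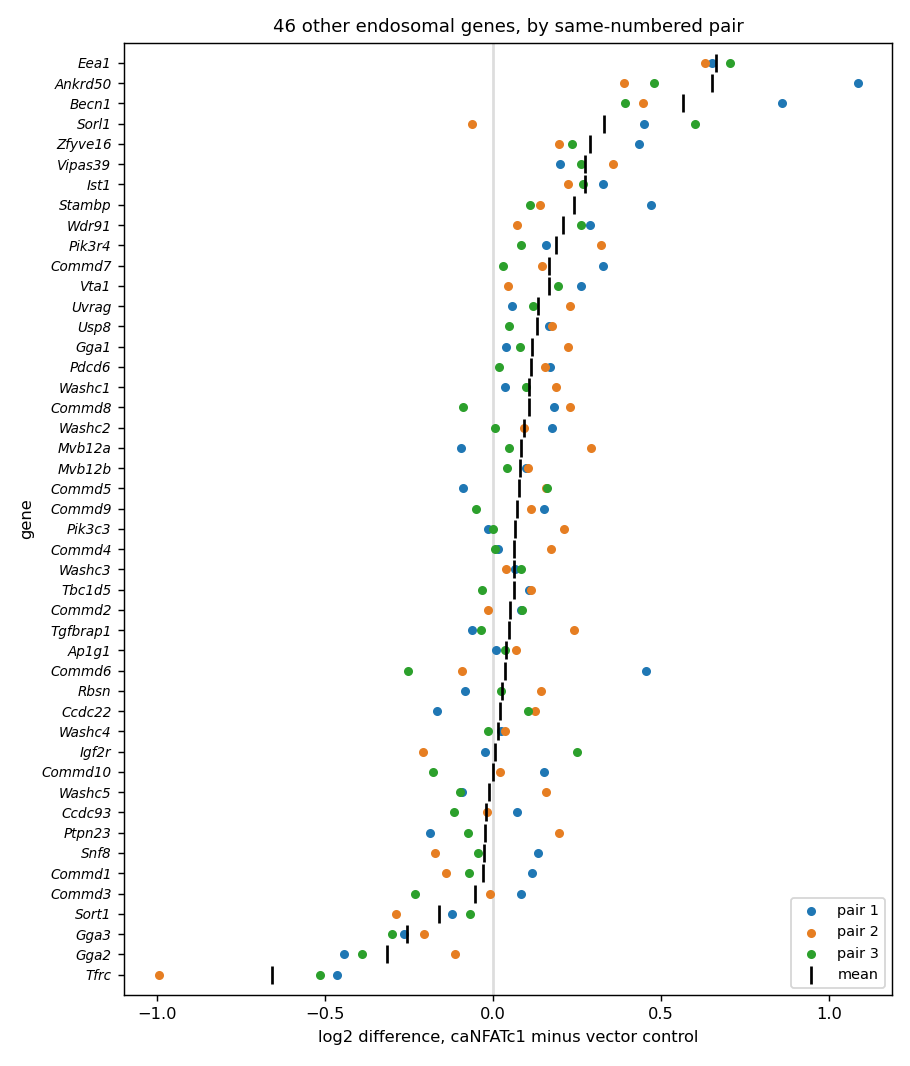
The 46 listed genes outside the name rule are ordered by their log2 difference, caNFATc1 minus vector control, with a coloured point for each same-numbered pair and a black tick at the mean. The 3 points of Eea1 lie close together at 0.63 to 0.71, and all 3 points of Tfrc lie below 0.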

How the data were processed

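RNA of 6 cultures was measured on single-colour arrays with biotin-labelled cDNA. The authors deposited log2 values for 28815 rows, a column per array. Per the submitters' processing notes, RMA was used and the build was mm8; the sources used here give no software version or row filter. Every row's median was 0 within 1e-06, so levels are lost, and base 2 was taken from RMA. Groups and replicate numbers come from the sample titles.

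Rows with 1 symbol in the platform annotation (21780; 1605 had several and 5430 were not listed) were averaged per gene. All 80 member symbols matched the GRCm38.p6 RefSeq table by Entrez number. Differences were tested with limma (version 3.58.1, R 4.3.3), 2-sided, over all 19935 genes. The limma fit used the group alone, with the replicate number as a block as an alternative. Same-numbered correlations all exceeded the limit of 0.1. Arrays of the same number were therefore treated as pairs in the block fit and in the differences by pair. The fit with the group alone left the pairing out. The series design calls the replicates biological. P-values of the fit with the group alone measure the spread between these cultures. Those of the block fit measure the spread of the differences between same-numbered arrays. The fit was tested on simulated data.

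Members, role lists, related genes and markers were chosen with earlier results of these data known. Array values are given for members called in either fit, the member with the largest difference of each role and 7 core members, 19 in all; others were named after their values were seen. Protein identities were not analysed here.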

Additional observations from a re-analysis of the deposited data

How the results depend on the processing

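The number of members called, 0 with the group alone, was 4 with the replicate block, 2 after quantile normalization, 1 with trended and robust variances, 2 with array weights and 2 among genes above the lower quartile of range, where 73 members were tested. It was 0 after array medians were set to 0 and with the row of largest range per gene. With the group alone, leaving out a replicate gave 0 members, except that 1, Snx7, was called without caNFATc1 replicate 2. Few genes of any kind were called in those fits. They ranged from 0 higher and 0 lower without vector control replicate 3 to 74 and 9 without caNFATc1 replicate 2. The block fits without replicate 1, 2 or 3 of both groups gave 3, 3 and 4 members. Calls over all genes moved too, from 41 higher and 2 lower with the group alone to 744 and 475 with the block. Quantile normalization gave 149 and 20, trended and robust variances 223 and 87, and array weights 212 and 52. Above the lower quartile of range, 153 and 16 of 14951 genes were called. The 3 block fits without a replicate called 509, 513 and 605 genes higher and 202, 230 and 481 lower. Vps36 was called in every setting that called 2 or more members, and alone with trended and robust variances. It was called in none of the fits with the group alone that left out a replicate. The members' median of 0.08 reached 0.118 without caNFATc1 replicate 3, was 0.062 when vector control replicate 3 was dropped, and was lowest, at 0.060, when both arrays numbered 2 were. The count of related genes called, 1 with the group alone, was 3 with the replicate block. Without a replicate it was 0 in every fit with the group alone. In the block fits without replicate 1, 2 or 3 of both groups it was 1, 1 and 4. Of 360 values of 19 named members, 9 had the opposite sign, all with a replicate left out. Pdcd6ip was 0.0235 when caNFATc1 replicate 1 was dropped and 0.0067 when both arrays numbered 1 were, with or without the block. Vps35 was -0.0122 without caNFATc1 replicate 1, and Hgs was -0.0192 without caNFATc1 replicate 2. Chmp4b was -0.0987 when caNFATc1 replicate 3 was dropped, -0.0422 when vector control replicate 1 was and -0.0727 when both arrays numbered 3 were, with or without the block. Without a replicate the ranges were -0.0834 to 0.0235 for Pdcd6ip, -0.0122 to 0.0658 for Vps35, -0.0192 to 0.191 for Hgs and -0.0987 to 0.185 for Chmp4b. Other named members kept their sign but moved by over 1.5 times, such as Vps4a (0.0089 to 0.148), Tsg101 (0.0191 to 0.222), Vps13d (0.0315 to 0.261), Vps39 (0.0705 to 0.27) and Vps37b (-0.346 to -0.0909). The cause of these shifts was not tested. With 3 arrays a group and row-centred values, signal over background is unknown.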
